A study of Mus musculus with 11 samples.

Results

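The simple epithelial keratins Krt7, Krt8, Krt18 and Krt19 were followed through RNA-seq of mouse ESCs depleted of Cbx6 and through ChIP-seq peak lists of CBX6, CBX7 and RING1B. They were the 4 rows of the expression table that carry these symbols, out of 23288 gene symbols, and 48 other keratin genes were in the same table. The cells were E14Tg2A ESCs, a mouse line grown without feeders in serum and LIF. RNA-seq covered 2 libraries of cells infected with a lentiviral control shRNA (shCtl 1 and shCtl 2) and 2 of cells infected with an shRNA against Cbx6 (shCbx6 1 and shCbx6 2), all selected with an antibiotic. Which of the Cbx6 shRNAs each library carried is not given in the sources used here, and nothing states that replicates came from separate infections, so the spread between them may be technical. ChIP-seq covered 2 anti-HA replicates in ESCs whose endogenous CBX6 carries a 3×HA tag (CBX6 1 and CBX6 2), from clones grown after single-cell sorting, and 1 experiment each for CBX7 and RING1B. The 4 genes were chosen from their FPKM values in the shCbx6 and shCtl libraries, so their differences in this contrast are given as a description, without a test. FPKM relate the fragments of a gene to its transcript length and to all mapped fragments of the library, so levels could be set side by side between genes.

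Keratins are the intermediate filament proteins of epithelial cells. A filament is built from pairs of 1 type II and 1 type I chain. Krt8 (type II) and Krt18 (type I) are the partners found first in the embryo, in trophectoderm and later in simple epithelia, and Krt7 (type II) and Krt19 (type I) join them in many ducts and glands. CBX6 and CBX7 are chromodomain proteins of Polycomb repressive complex 1 (PRC1), and RING1B is the ubiquitin ligase of that complex, which is known for keeping developmental genes silent.

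On the mm9 assembly, Krt7 (ENSMUSG00000023039.9) lies on chr15:101241474-101260744 on the plus strand, and Krt8 (ENSMUSG00000049382.9) on chr15:101827142-101834773 on the minus strand. Krt18 (ENSMUSG00000023043.6) follows on chr15:101858647-101862457 on the plus strand. The starts of Krt8 and Krt18 thus faced each other across 23873 bp with no protein-coding gene between them. Krt19 (ENSMUSG00000020911.8) lies apart on the minus strand of chr11:100002124-100009979, next to Krt15 and Krt9. The encoded proteins had 457, 490, 423 and 403 residues for Krt7, Krt8, Krt18 and Krt19. Krt7 and Krt8 shared 61.9% of aligned residues, Krt18 and Krt19 shared 49.4%, and pairs across the types shared 31.7 to 35.0%.

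The promoters are shown here because the peaks described further on fell on them in different ways, with each CpG, the dinucleotide in which mammalian DNA is methylated, in capitals. Each runs from 250 bases before to 50 bases after the start in RefSeq on GRCm38.p6, and 3 of the 4 genes had an entry, all but Krt19. The last sequence is the 300 bases at the middle of a site upstream of Krt18 that the CBX6 2, CBX7 and RING1B lists shared, read from the plus strand of mm9 at chr15:101856208-101856507.
Krt7 promoter (plus strand, chr15:101412153-101412452): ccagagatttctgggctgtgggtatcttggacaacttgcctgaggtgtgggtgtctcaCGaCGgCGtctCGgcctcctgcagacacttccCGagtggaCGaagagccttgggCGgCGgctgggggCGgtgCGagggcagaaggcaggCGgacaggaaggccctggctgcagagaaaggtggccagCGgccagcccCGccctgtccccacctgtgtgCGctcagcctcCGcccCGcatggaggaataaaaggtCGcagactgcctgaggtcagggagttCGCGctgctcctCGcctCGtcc
Krt8 promoter (minus strand, chr15:102004293-102004592): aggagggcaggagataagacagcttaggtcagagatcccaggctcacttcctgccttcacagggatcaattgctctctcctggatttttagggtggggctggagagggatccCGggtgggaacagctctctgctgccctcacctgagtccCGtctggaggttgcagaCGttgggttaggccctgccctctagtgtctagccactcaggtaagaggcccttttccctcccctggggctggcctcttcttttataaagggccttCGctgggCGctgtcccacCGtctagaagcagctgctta
Krt18 promoter (plus strand, chr15:102027966-102028265): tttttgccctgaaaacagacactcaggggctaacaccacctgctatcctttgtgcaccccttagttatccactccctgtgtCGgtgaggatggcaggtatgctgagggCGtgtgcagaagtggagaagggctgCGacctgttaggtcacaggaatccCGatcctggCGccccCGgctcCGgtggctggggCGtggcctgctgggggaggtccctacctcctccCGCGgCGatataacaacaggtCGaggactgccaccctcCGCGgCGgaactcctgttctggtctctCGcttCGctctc
Middle of the shared site upstream of Krt18: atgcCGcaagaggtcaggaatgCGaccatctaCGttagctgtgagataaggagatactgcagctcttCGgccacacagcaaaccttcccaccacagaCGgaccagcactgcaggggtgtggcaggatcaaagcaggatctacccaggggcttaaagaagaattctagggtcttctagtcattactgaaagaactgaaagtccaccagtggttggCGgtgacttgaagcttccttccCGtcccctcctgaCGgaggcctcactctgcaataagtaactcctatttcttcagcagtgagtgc

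The Krt7 promoter held 21 CpG and the Krt18 promoter 17, against 6 in the Krt8 promoter and a median of 7 over 32544 RefSeq promoters. The ratio of observed to expected CpG was 0.641 for Krt7, 0.603 for Krt18 and 0.238 for Krt8, with a median of 0.387 over all promoters. The middle of the shared site held 8 CpG (ratio 0.395), and the whole site of 2354 bp held 52 (ratio 0.315). Letters of 5 motifs were searched on both strands. The GC box (GGGCGG) occurred 4 times in the Krt7 promoter and in 35.9% of all promoters. The TATA box (TATAAA) lay across the annotated Krt8 start, once on each strand with overlapping letters, and in 13.6% of promoters. An ETS motif (AGGAAG, 35.1% of promoters) occurred once each at Krt7 and Krt8, and a GATA motif (AGATAA, 11.2%) once at Krt8. The AP-1 motif (TGANTCA, 7.79%) was in none of the 3 promoters, and the Krt18 promoter held none of the 5 motifs. A match describes letters only.

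Krt8, the type II chain, stood at 4.81 FPKM in shCtl 1, 7.25 in shCtl 2, 12.1 in shCbx6 1 and 118.8 in shCbx6 2. Both shCbx6 libraries lay above both shCtl libraries, and shCbx6 2 stood far above the rest. Relative to the shCtl mean (6.03 ± 1.72, SD, n = 2), the level was 2.01 times as high in shCbx6 1 and 19.7 times as high in shCbx6 2.

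Krt18, its type I partner, stood at 3.66 FPKM in shCtl 1, 6.91 in shCtl 2, 13.2 in shCbx6 1 and 122.2 in shCbx6 2. The order of the libraries was the one seen for Krt8. The ratios to the shCtl mean (5.29 ± 2.30, SD, n = 2) were 2.49 in shCbx6 1 and 23.1 in shCbx6 2.

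Krt19, a type I chain that lacks most of the tail domain, stood at 0.775 FPKM in shCtl 1, 0.944 in shCtl 2, 1.78 in shCbx6 1 and 11.5 in shCbx6 2. The shCtl libraries lay under 1 FPKM and both shCbx6 libraries above it. The ratios to the shCtl mean (0.860 ± 0.119, SD, n = 2) were 2.08 and 13.4.

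Krt7, the type II chain of ducts and glands, stood at 0.0219 FPKM in shCtl 1, 0.151 in shCtl 2, 0.549 in shCbx6 1 and 9.02 in shCbx6 2. It exceeded 1 FPKM in shCbx6 2 alone. The depth of each library relative to shCtl 1 was estimated from genes under 0.1 FPKM, whose values step by whole fragments, as 1.01 for shCtl 2, 0.956 for shCbx6 1 and 1.13 for shCbx6 2. Multiplied by that depth, the Krt7 values were 1, 7, 24 and 465 times the lowest, each within 0.01 of a whole number. The ratios to the shCtl mean (0.0865 ± 0.0914, SD, n = 2) were 6.35 in shCbx6 1 and 104 in shCbx6 2. If the lowest value stands for 1 fragment, the shCtl libraries hold 8 fragments together, and the 95% counting intervals of the ratios run from 2.75 to 16.3 and from 52.2 to 242. Such intervals cover counting error only, pool shCtl values of 1 and 7, and are no test, since Krt7 was chosen on this contrast.

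**Figure D1:**
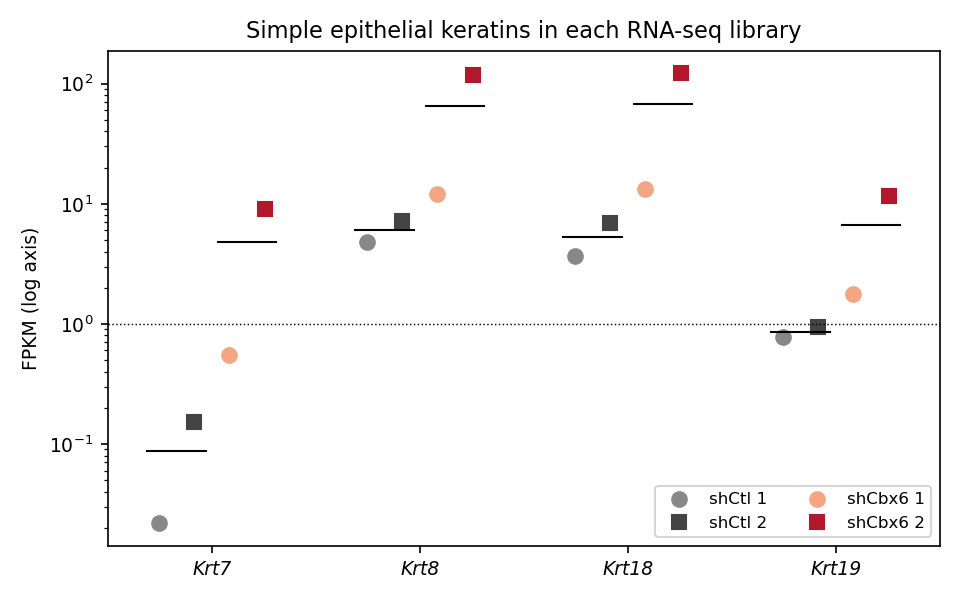
FPKM (log axis) of the 4 keratins in each of the 4 libraries; circles are replicate 1, squares replicate 2, short black lines the group means and the dotted line 1 FPKM. For each gene the order of libraries was the same, from shCtl 1 through shCtl 2 and shCbx6 1 to shCbx6 2, with shCbx6 2 between 6.45 and 16.4 times above shCbx6 1.

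The 2 shCbx6 libraries differed from each other by more than shCbx6 1 differed from the shCtl mean. The level in shCbx6 2 was 16.4 times that in shCbx6 1 for Krt7, 9.81 times for Krt8, 9.29 times for Krt18 and 6.45 times for Krt19. Between the shCtl libraries the higher value was 6.91 times the lower for Krt7, 1.51 times for Krt8, 1.89 times for Krt18 and 1.22 times for Krt19. On the log2(FPKM + 1) scale, which understates changes of low genes, the difference of the group means was 2.78 for Krt18, 2.52 for Krt8, 1.86 for Krt7 and 1.67 for Krt19. Without shCbx6 2 these differences were 1.22, 0.92, 0.51 and 0.58. All 4 genes passed the filter of a group mean of at least 1 FPKM, Krt7 and Krt19 only through the shCbx6 mean, so they had to differ to be kept. In bulk RNA, a larger share of keratin-positive cells and more keratin RNA in each cell cannot be told apart.

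Of the 11592 genes that passed the filter, 7.63% had an shCbx6 mean at least 1.5 times the shCtl mean, and 6.56% lay as far below. In shCbx6 1 alone, 5.74% were at least 1.5 times the shCtl mean, and in shCbx6 2 alone, 11.2%. Both shCbx6 libraries lay above both shCtl libraries for 18.9% of genes and below them for 24.4%. The 4 keratins were past 1.5-fold in each shCbx6 library with no overlap of the groups, from which nothing is read since they were chosen on this contrast. Ordered by log2 difference, Krt18, Krt8, Krt7 and Krt19 ranked 20, 24, 35 and 46 in shCbx6 2, and 114, 198, 534 and 426 in shCbx6 1. The limma test with Benjamini-Hochberg adjustment called 0.0431% of genes higher (5 genes) and 0.0518% lower (6 genes) in shCbx6. At an unadjusted p under 0.05 there were 593 higher and 759 lower. Without shCbx6 1, 1414 genes were past 1.5-fold upward in place of 885.

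**Figure D2:**
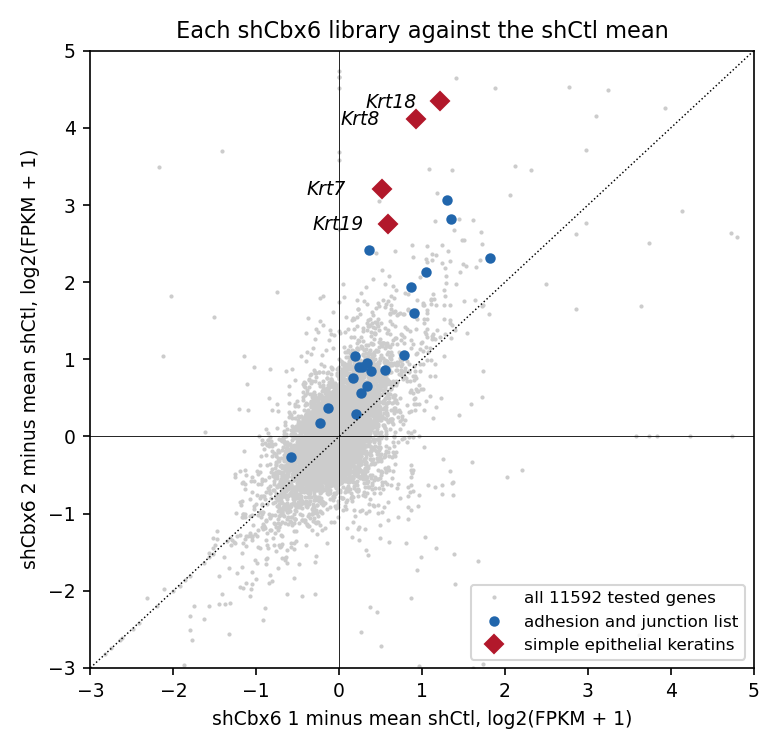
Difference from the shCtl mean in shCbx6 1 (horizontal) and shCbx6 2 (vertical) on the log2(FPKM + 1) scale, both against the same shCtl libraries; grey points are the 11592 tested genes (49 lie outside the axes), blue points the adhesion and junction list, red diamonds the keratins and the dotted line equal differences. The keratins sit above the line, at 0.51 to 1.22 in shCbx6 1 and 2.75 to 4.34 in shCbx6 2.

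The summed FPKM of the 4 keratins was 9.27 in shCtl 1, 15.3 in shCtl 2, 27.6 in shCbx6 1 and 262 in shCbx6 2. The ratio of type II to type I chains was 1.09, 0.942, 0.848 and 0.956 in the same order. Krt8 and Krt18 together gave 91.4 to 92.8% of the sum in every library. The ratio of Krt8 to Krt18 was 1.31, 1.05, 0.921 and 0.972, so the ratio of the types is mainly theirs. The ratios to the less abundant chains differed more between libraries. Krt19 stood at 35.5 times Krt7 in shCtl 1, 6.25 times in shCtl 2, 3.25 times in shCbx6 1 and 1.28 times in shCbx6 2, and Krt7 at 0.00454, 0.0208, 0.0453 and 0.0759 times Krt8. Among all genes of the table, 8090 were at or above Krt8 in shCtl 1 and 7007 in shCtl 2, against 5330 in shCbx6 1 and 783 in shCbx6 2. The Krt8 level carries an uncertainty, since 96.0% of its transcript aligned to 1 other place on mm9 at 97.9% identity and reads that mapped to several places were discarded. Krt18 and Krt19 had no such copy, and Krt7 had copies over 3.00% of its transcript.

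The other keratin genes were mostly under 1 FPKM. Of 48, 23 were listed at 0 in every library and 45 lay under 1 FPKM in every library. Those above were Krt42, Krt17 and Krt10, all type I. Krt42 stood at 13.3 and 9.64 FPKM in shCtl and at 9.50 and 5.31 in shCbx6, so the shCbx6 libraries were the lower ones (log2 difference -0.60, adjusted p = 0.509 in limma). Krt17, a keratin of stressed and basal epithelia, stood at 8.39 and 7.05 in shCtl and 7.16 and 4.68 in shCbx6 (-0.35, adjusted p = 0.608). Krt10, a keratin of the upper epidermis, lay between 1.09 and 1.64 in all libraries (-0.11, adjusted p = 0.883). None of these 3 was past 1.5-fold upward, and 1, Krt42, was past it downward. Over all 48, filter or not, the groups did not overlap for 5 genes that were higher in shCbx6 (Krt20, Krt28, Krt4, Krt80 and Krt9, up to 0.292 FPKM) and 2 that were lower (Krt13 and Krt42), where the shares over all genes of the table were 16.5% higher and 16.1% lower. Genes beside the members were low too, with Krt80 up to 0.154 FPKM, Krt78 up to 0.0581, Krt9 up to 0.0451, Krt15 up to 0.0208 and Krt83 at 0. Eif4b, the gene beyond Krt18, stood at 275 and 263 FPKM in shCtl and 321 and 274 in shCbx6.

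Genes that act with keratins in epithelia were counted from lists that cover adhesion, desmosomes and regulators. The lists were chosen with earlier results of these data known, so their counts are a description and no independent support. Some passed the filter only through the shCbx6 mean, as 420 of all tested genes did, 330 of them past 1.5-fold upward, and such genes are given with each list since the filter fixed their direction. The median of each list includes them. Of 21 adhesion and junction genes, all tested, 15 were past 1.5-fold upward and 0 downward, against 7.63% and 6.56% of all tested genes. In shCbx6 1 alone 9 were past it upward (5.74% of all tested genes) and in shCbx6 2 alone 16 (11.2%). The median log2 difference was 0.62 against -0.01 over all tested genes. limma called 0 of them, and 7 were higher at an unadjusted p under 0.05, as were 593 of the 11592 tested genes. Of the 15, 3 passed the filter only through the shCbx6 mean. With the replicate number as a block, limma called 7. Without shCbx6 2 the count past 1.5-fold was 8.

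Cldn7, a claudin of tight junctions, stood at 1.54 and 4.25 FPKM in shCtl and at 7.99 and 29.5 in shCbx6 (log2 difference 2.18, SE 0.64, adjusted p = 0.308 in limma). Cldn6, an embryonic claudin, stood at 7.42 and 15.3 in shCtl and at 28.7 and 81.4 in shCbx6 (2.08, SE 0.55, adjusted p = 0.264). Rab25, a GTPase of epithelial membrane recycling, stood at 2.82 and 4.46 in shCtl and at 15.1 and 21.8 in shCbx6 (2.07, SE 0.26, adjusted p = 0.0872). The 3 genes had groups that did not overlap, and Rab25 differed least between the shCbx6 libraries. At the other end, Itga6, a subunit of the integrin of hemidesmosomes, stood at 37.5 and 44.8 in shCtl and at 27.0 and 34.0 in shCbx6 (-0.42, adjusted p = 0.456), and its partner Itgb4 lay between 1.43 and 2.22 in all libraries (-0.03, adjusted p = 0.978).

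Of 15 desmosome and linker genes, which tie keratin filaments to the membrane, 12 were tested. Of these, 6 were past 1.5-fold upward and 0 downward (7.63% and 6.56% of all tested genes). In shCbx6 1 alone 3 were past it upward and in shCbx6 2 alone 6, and the median log2 difference was 0.34. limma called 0, and 1 was higher at an unadjusted p under 0.05, namely Ppl, which was tested only through its shCbx6 mean. With the replicate block limma called 1. Without shCbx6 2 the count past 1.5-fold was 1. Of the other 5, Dsp, Pkp2 and Perp were under 1.5-fold in shCbx6 1, while Dsc2 and Ppl, at 3.42 and 1.84 times the shCtl mean there, fell under the filter of 1 FPKM. Dsc2, Ppl and Evpl had passed the filter only through the shCbx6 mean, so they had to be higher there to be counted. They also raised the median, and without them the middle gene of those tested was Jup (0.10). The cadherin Dsc2 stood at 0.172 and 0.0779 FPKM in shCtl and at 0.428 and 2.19 in shCbx6 (0.92, adjusted p = 0.473). Perp stood at 3.81 and 4.99 in shCtl and at 5.01 and 14.6 in shCbx6 (0.85, adjusted p = 0.551), and the plakin Ppl at 0.522 and 0.516 against 0.957 and 2.25 (0.73, adjusted p = 0.427). The cadherin Dsg2 was lower in both shCbx6 libraries, at 13.2 and 15.3 against 15.7 and 17.6 (-0.21, adjusted p = 0.654), while the plakophilin Pkp4 lay between 26.1 and 29.0 in all libraries (-0.03, adjusted p = 0.959).

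Of 14 epithelial transcription and splicing regulators, 10 were tested. Of these, 6 were past 1.5-fold upward and 0 downward (7.63% and 6.56% of all tested genes), with a median log2 difference of 0.48. limma called 0, and 4 were higher and 1 lower at an unadjusted p under 0.05. With the replicate block limma called 3. Esrp1, a splicing factor of epithelial cells, stood at 4.23 and 4.68 FPKM in shCtl and at 17.7 and 26.3 in shCbx6 (2.05, adjusted p = 0.0754). Tfap2c, a transcription factor of trophectoderm and ectoderm, stood at 2.84 and 2.21 in shCtl and at 7.41 and 9.04 in shCbx6 (1.39, adjusted p = 0.0895). Grhl2, a grainyhead factor, stood at 6.87 and 8.19 in shCtl and at 13.7 and 19.8 in shCbx6 (1.04, adjusted p = 0.187). For these 3 the shCbx6 libraries lay within 1.48 times of each other, closer than for any of the 4 keratins. Klf5 was lower in both shCbx6 libraries, at 46.8 and 50.5 against 60.6 and 68.8 (-0.40, adjusted p = 0.393), and Grhl3 overlapped, at 3.17 and 5.72 in shCtl and 3.20 and 4.66 in shCbx6 (-0.12, adjusted p = 0.920).

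Of 11 AP-1, ETS and SP factors, families known to act on keratin promoters, 6 were tested, 1 was past 1.5-fold upward and 0 downward, with a median log2 difference of 0.12. limma called 0, and 1 was higher at an unadjusted p under 0.05. That gene was Jun, which passed the filter only through the shCbx6 mean, at 0.223 and 0.350 FPKM in shCtl and 0.720 and 2.25 in shCbx6 (0.88, adjusted p = 0.421). Junb (0.42, adjusted p = 0.608), Jund (0.28, adjusted p = 0.746), Ets2 (-0.35, adjusted p = 0.623) and Sp3 (-0.05, adjusted p = 0.927) overlapped between the groups, and Sp1 was lower in both shCbx6 libraries (-0.13, adjusted p = 0.799). The median includes Jun, and without Jun the middle gene of those tested was Sp3.

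Of 13 intermediate filament genes other than keratins, 10 were tested, 3 were past 1.5-fold upward and 0 downward, with a median log2 difference of 0.11. limma called 0, and 3 were higher at an unadjusted p under 0.05. Nefl, the light neurofilament chain, stood at 6.81 and 6.49 FPKM in shCtl and 18.7 and 19.8 in shCbx6 (1.41, adjusted p = 0.0638). Ina, a filament of neurons, stood at 8.13 and 7.72 in shCtl and 20.6 and 21.4 in shCbx6 (1.30, adjusted p = 0.0744). Nes, the filament of neural progenitors, stood at 0.673 and 0.720 against 1.59 and 3.27 (0.97, adjusted p = 0.300), and passed the filter only through the shCbx6 mean. Nefl and Ina were nearly level between the shCbx6 libraries, at 1.06 and 1.04 times, unlike the keratins. Vim, the mesenchymal filament, was lower in both shCbx6 libraries, at 34.9 and 42.0 against 53.3 and 43.9 (-0.33, adjusted p = 0.548). Des (-0.10, adjusted p = 0.917) and Lmnb2 (-0.02, adjusted p = 0.972) overlapped.

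**Figure D3:**
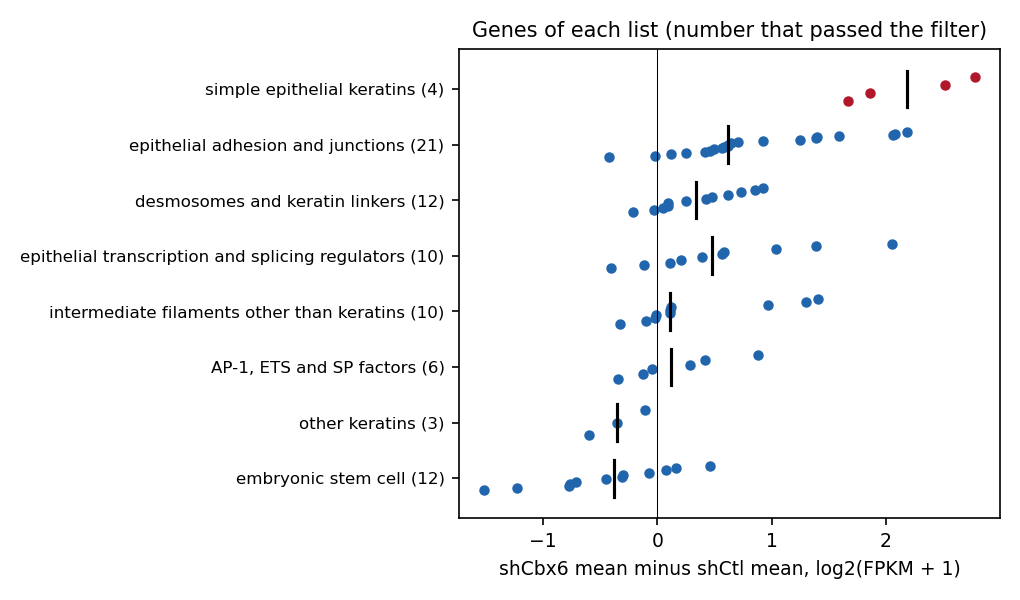
Difference of group means on the log2(FPKM + 1) scale for each tested gene of 8 lists, with the number of tested genes in brackets; points are genes, spread vertically by order, and black bars are medians. The keratins, chosen on this contrast, lie at 1.67 to 2.78, the adhesion and junction list has its median at 0.62, and the other keratins and the ESC markers have theirs at -0.35 and -0.38.

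The targeted gene Cbx6 stood at 17.4 and 14.9 FPKM in shCtl and at 9.53 and 5.40 in shCbx6, lower in both shCbx6 libraries but not called (log2 difference -1.06, SE 0.26, adjusted p = 0.247 in limma). The library with the highest keratins, shCbx6 2, had the least Cbx6, which rests on 2 shCbx6 libraries, and a link was not tested. Markers of cell types had the following values, and their part in the keratin values was not tested. Of 12 ESC markers, 0 were past 1.5-fold upward and 5 downward, with sums of 7935 and 9057 FPKM in shCtl and 7282 and 6220 in shCbx6. limma called 0, and 6 were lower at an unadjusted p under 0.05. Pou5f1, which defines the ESC state, stood at 1359 and 1452 FPKM in shCtl and 1120 and 1151 in shCbx6, lower in both shCbx6 libraries (-0.31). Klf4 stood at 91.1 and 96.7 in shCtl and 36.7 and 28.0 in shCbx6 (-1.52, adjusted p = 0.0842), Tfcp2l1 at 64.8 and 55.6 against 35.5 and 17.7 (-1.23, adjusted p = 0.274), and Nanog at 321 and 359 against 204 and 192 (-0.78, adjusted p = 0.188). Utf1 (0.46, adjusted p = 0.538), Klf2 (0.17, adjusted p = 0.836) and Sox2 (0.08, adjusted p = 0.905) lay at the other end of the list.

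Of 10 trophectoderm markers, 9 were in the table and 4 were tested, 2 past 1.5-fold upward and 1 downward, with sums of 10.8 to 12.9 FPKM in shCtl and 8.71 to 12.9 in shCbx6. limma called 0, and 1 was lower at an unadjusted p under 0.05. The defining factors Cdx2, Elf5 and Gata3 reached 0.511, 0.0533 and 0.489 FPKM at most, each with the highest value in shCbx6 2, Gata2 reached 0.427 FPKM with the highest value in shCtl 1, and Tpbpa was listed at 0. The 2 upward genes, Hand1 and Ascl2, passed the filter only through the shCbx6 mean. Hand1 stood at 0.0535 and 0.0176 in shCtl and 0.205 and 1.80 in shCbx6 (0.83, adjusted p = 0.538), Ascl2 at 0.601 and 1.21 against 1.05 and 2.99 (0.61, adjusted p = 0.606), and Tead4 at 9.68 and 7.87 against 5.48 and 4.93 (-0.65, adjusted p = 0.239). Over the whole list, filter or not, 4 of 9 were higher and 1 lower without overlap of the groups, against 16.5% higher and 16.1% lower over all 23288 genes of the table. Eomes overlapped, between 1.42 and 2.12 FPKM with the highest value in shCtl 1 (0.01, adjusted p = 0.989).

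Dab2 and Snai1, named next, also passed the filter only through the shCbx6 mean. Of 12 primitive and visceral endoderm markers 1 was tested, Dab2 (0.40, adjusted p = 0.649), with sums of 2.46 to 2.74 FPKM in shCtl and 2.10 to 3.81 in shCbx6 and Ttr and Afp at 0. Over the whole list, filter or not, 3 genes were higher (Gata6, Sox17 and Dab2) and 5 lower in both shCbx6 libraries than in both shCtl libraries. The shares over all genes of the table were 16.5% and 16.1%. The lower ones were Foxa2, Hnf4a, Pdgfra, Cubn and Sox7, the last at 0.700 and 0.604 FPKM in shCtl and 0.361 and 0.228 in shCbx6. Of 8 mesoderm markers 1 was tested, Snai1 (0.60, adjusted p = 0.539), with sums of 1.29 to 1.46 and 1.90 to 3.67. Over the whole list 4 were higher (T, Mixl1, Mesp1 and Snai1) and 1 lower (Kdr) without overlap, against 16.5% and 16.1% of all genes of the table. T stood at 0.0984 and 0.0324 FPKM in shCtl and 0.446 and 0.771 in shCbx6. Of 7 epidermis markers 1 was tested, Sfn, at 12.8 and 20.7 FPKM in shCtl and 25.7 and 60.3 in shCbx6 (1.23, adjusted p = 0.389), while Krt5, Krt14 and Trp63 stayed at 0.0135, 0.258 and 0.0418 FPKM or less. Its list summed to 13.0 to 20.9 in shCtl and 26.0 to 60.6 in shCbx6, nearly all of it Sfn, and no other gene of it had groups without overlap. Of 8 fibroblast markers 1 was tested, Thy1 (0.28, adjusted p = 0.841), with sums of 2.29 to 2.32 and 1.71 to 5.39. Thy1 stood at 1.68 and 1.64 FPKM in shCtl, lower in shCbx6 1 (1.16) and higher in shCbx6 2 (3.82). Over the whole list 4 of 8 were higher and 0 lower without overlap (16.5% and 16.1% of all genes of the table), namely Col1a1, Col1a2, Col3a1 and Dcn, all highest in shCbx6 2. Col1a1, the most abundant of them, stood at 0.0336 and 0.0398 FPKM in shCtl and 0.0984 and 0.549 in shCbx6. Of 8 neuroectoderm markers 4 were tested, 1 past 1.5-fold upward, Pax6 (1.12, adjusted p = 0.430), and 1 downward, Sox1 (-1.12, adjusted p = 0.187), with Tubb3 (-0.45, adjusted p = 0.407) and Map2 (-0.22, adjusted p = 0.809) between them and sums of 33.9 to 41.4 and 24.4 to 34.0. Pax6 stood at 1.47 and 0.569 FPKM in shCtl, 5.51 in shCbx6 1 and 1.82 in shCbx6 2, so shCbx6 1 was the higher, unlike for the keratins. Sox1 stood at 2.14 and 2.40 in shCtl and 0.767 and 0.287 in shCbx6. limma called 0 of these 5 lists, with 0 genes of the endoderm, mesoderm and fibroblast lists, 1 of the epidermis list and 2 of the neuroectoderm list at an unadjusted p under 0.05.

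The genes whose pattern over the 4 libraries lay closest to the keratins were found from the Euclidean distance between centred log2(FPKM + 1) values, in which the members themselves lay at 0.386 (Krt7) to 0.722 (Krt19) from their mean. The nearest was S100a6, a calcium-binding protein, at a distance of 0.307, with 6.75 and 9.91 FPKM in shCtl and 18.5 and 100.5 in shCbx6. Gsn, the actin-severing protein gelsolin, followed at 0.475, with 0.454 and 0.802 against 1.26 and 12.4. Cyr61, a matricellular protein, lay at 0.566, with 1.14 and 1.34 against 4.75 and 23.5. Klhl13, an adaptor of a ubiquitin ligase, lay at 0.679, with 11.2 and 10.3 against 25.6 and 103.7, and Anxa3, an annexin, at 0.716, with 1.67 and 2.16 against 3.56 and 18.5. In these 5 genes, as their choice by pattern fixed, shCbx6 2 lay far above shCbx6 1. Cldn7 (0.866), Igf2 (0.883) and Thbs1 (0.887) completed the 10 together with Mir671 (0.751) and Mir96 (0.778). Igf2, a fetal growth factor, stood at 0.173 and 0.359 FPKM in shCtl and 2.35 and 30.5 in shCbx6, and Thbs1, a matrix glycoprotein, at 0.0486 and 0.0533 against 1.33 and 6.30. The short Mir671 and Mir96 entries were listed at 0 in 3 libraries and at 11.03 and 11.84 FPKM in shCbx6 2. The likeness is a description over 4 libraries.

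Peaks of the 4 lists were assigned to a gene between 2.5 kb upstream of its start and its transcription end. They came from ESCs without knockdown, so they describe the genes before depletion. The CBX6 1 list, with 21865 peaks, had a peak at all 4 keratins, but also at 56.9% of the 21925 genes with coordinates. The CBX6 2 list, with 5103 peaks, had one at Krt8 and Krt18 (16.6% of all genes). The CBX7 list (5081 peaks) had one at Krt7, Krt8 and Krt18 (17.9%) and the RING1B list (4180 peaks) at Krt18 alone (16.1%). Only Krt18 was thus in every list. The score of a peak is that of the authors' peak caller. Scores are not on 1 scale between lists, since depth is unknown and the protocols differed. The labels give a high sensitivity kit for the HA and CBX7 experiments, the study's methods give it for the HA-tagged line only, and neither gives it for RING1B.

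Krt18 had the broadest peaks of the 4 genes. The CBX7 peak (chr15:101854736-101859461, score 955.6) and the RING1B peak (chr15:101855182-101859287, score 615.0) ran from well upstream across the start. The CBX6 2 list split the same stretch into an upstream peak (chr15:101855063-101857535, score 530.9), centred at -2348 bp from the start, and a weaker one across the start (chr15:101857577-101859456, score 92.9). The CBX6 1 peak (chr15:101856661-101859443, score 139.6) spanned the start as well. The site common to CBX6 2, CBX7 and RING1B upstream of the start covered chr15:101855182-101857535, centred at -2289 bp from it, between Krt8 and Krt18. The CBX6 1 peak overlapped 875 of its 2354 bp. All 300 bases of the Krt18 promoter printed above lay inside peaks of all 4 lists.

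At Krt8 the peaks lay inside the gene. CBX6 1 (chr15:101832717-101834268, score 104.8), CBX6 2 (chr15:101832293-101834398, score 134.5) and CBX7 (chr15:101832173-101834510, score 273.8) were all centred in intron 1, and none reached the start, whose CpG-poor promoter overlapped no peak. Krt7, in contrast, had peaks of CBX6 1 (chr15:101241709-101243274, score 78.0) and CBX7 (chr15:101242443-101243277, score 79.2) that covered its whole CpG-rich promoter, the CBX7 score being lower than that of all but 16.2% of the peaks in its list. Krt19 had a single peak, in CBX6 1 (chr11:100006067-100007558, score 196.6), centred in coding exon 1 and spanning the start of its consensus coding transcript.

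**Figure D4:**
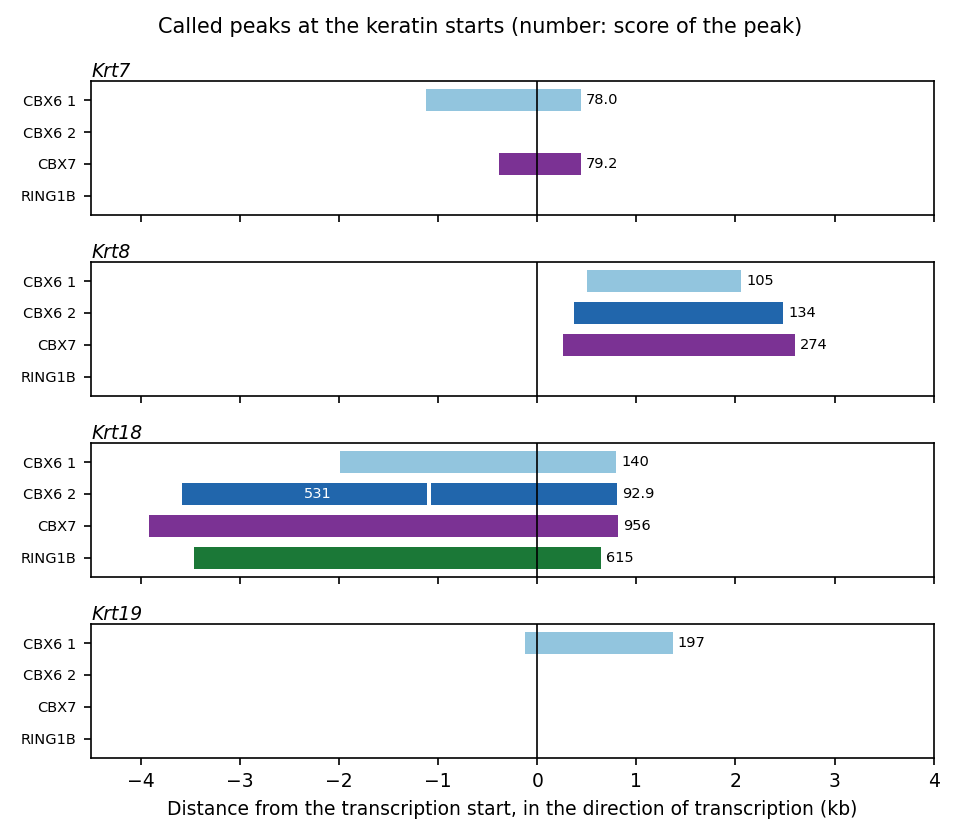
Peaks at each keratin gene drawn as bars by distance from the transcription start in kb, in the direction of transcription, with 1 row for each of the 4 lists and the score of each peak in figures. Bars span the start at Krt7, Krt18 and Krt19 and begin 263 bp or more inside the gene at Krt8, and Krt18 alone has bars in all rows.

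Among the 47 other keratin genes with coordinates, 7 had a CBX6 1 peak, 2 a CBX6 2 peak (Krt1 and Krt77), 1 a CBX7 peak and 2 a RING1B peak. Of the 21 adhesion and junction genes, 21, 10, 10 and 7 had a peak in the CBX6 1, CBX6 2, CBX7 and RING1B lists, of the 15 desmosome and linker genes 11, 9, 9 and 7, and of the 14 regulators 12, 7, 8 and 7, where the shares over all genes were 56.9%, 16.6%, 17.9% and 16.1%. Of the 10 genes nearest in pattern to the keratins, 6, 3, 5 and 4 had a peak in these lists.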

How the data were processed

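RNA-seq of 4 libraries and 4 ChIP-seq peak lists were used out of 11 samples, grouped by their labels. The authors placed the paired reads on mm9 with TopHat, dropped those with several possible places and computed FPKM of RefSeq transcripts with Cufflinks, and the deposited FPKM values were used without rescaling. For ChIP-seq, the authors aligned reads with Bowtie, discarded reads mapping to several places and called peaks per sample with MACS at a shift size of 75 bp, and the deposited score of each peak was used only to describe it. The 3 control ChIP-seq samples were not analysed here. Sequencing depth is not given for any file, and relative depth of the RNA-seq libraries was estimated from low FPKM values.

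The members and gene lists were chosen with earlier results of these data known. Genes whose shCtl or shCbx6 mean reached 1 FPKM were fitted with limma (version 3.58.1, R 4.3.3; lmFit and eBayes with a trend, no replicate term) on log2(FPKM + 1), with Benjamini-Hochberg adjustment over all 11592 genes, and p-values of the members were not used. The step was tested on simulated data. Where 2 entries shared a symbol, the one with the higher mean was kept. Peaks were assigned with an overlap of at least 1 bp on the GENCODE annotation of mm9, in which 21925 of 23288 symbols matched, 776 of them by a synonym. Promoters came from RefSeq (GRCm38.p6) and matched 1 place each on the mm9 chromosome. Transcript copies were sought with BLAST 2.17.0 (at least 95% identity over 100 bases), with Python 3.11.15 for the rest.

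Named are the members, Cbx6, up to 3 genes of each list with the largest difference in each direction, other keratins with a group mean of at least 1 FPKM, the 10 nearest patterns, the neighbouring genes and every peak at a member. Marker genes that define a cell type were named beside these after their values were seen. Alternatives covered the pseudocount, the filter, scaling, the replicate block, each library left out in turn, and the window, score and centre of peaks.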

Additional observations from a re-analysis of the deposited data

How the results depend on the processing

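The log2 differences of the 4 keratins kept their sign under every alternative run. For all 4, both shCbx6 libraries lay above both shCtl libraries, so leaving out a library or changing the pseudocount could not reverse it. A pseudocount of 0.1 in place of 1 raised that of Krt7 from 1.86 to 3.80, as it must for a gene near 0 in shCtl. Leaving out 1 library at a time gave ranges of 0.51 to 3.21 for Krt7, 0.92 to 4.11 for Krt8, 1.22 to 4.34 for Krt18 and 0.58 to 2.75 for Krt19, with the lowest value without shCbx6 2 and the highest without shCbx6 1. Other values for the keratins moved by less than 1 SD, pooled over both groups, which is wide (1.09 to 1.62) because of the gap between the shCbx6 libraries. Leaving out 1 library could not move a value past that SD. Against the SD of the shCtl libraries alone, the pseudocount moved Krt19 by 0.62 (SD 0.09) and quantile normalization lowered Krt7 to 1.66 (SD 0.12).

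limma called 5 genes higher and 6 lower. With a pseudocount of 0.1 it called 11 higher, and without a filter 1 higher and 1 lower. Leaving out 1 library gave 5 to 267 higher and 8 to 131 lower, where the lone library of a group was assumed to vary like the other group. With the replicate block it called 183 higher and 205 lower, 388 in all, among them the 11 called without it. The labels give replicate numbers without saying that they mark a shared batch, and with 2 numbers the pairing could not be established. The deviations of same-numbered libraries correlated at 0.266 over genes. The block called 7 adhesion and junction genes, 1 desmosome gene and 3 regulators where the fit without it called 0. Without a block, leaving out shCbx6 1 gave 7, 4 and 3 calls in these lists, and leaving out shCbx6 2 gave 0, 0 and 1.

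Counts past 1.5-fold were 885 up and 761 down. Without a filter they were 3739 and 2357, and with both same-numbered ratios past 1.5-fold 513 and 456. Leaving out 1 library gave 632 to 1414 up and 850 to 1179 down, 8 to 16 of the adhesion and junction genes, 1 to 6 of the desmosome genes and 4 to 7 of the regulators. Counts of keratin genes with a peak changed by at most 1 gene, under a minimum score of 100. With 2 libraries per group, and shCbx6 2 far from shCbx6 1, the size of the keratin differences is poorly fixed.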
